A study of Mus musculus with 12 samples.

Results

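The genes of cholesterol and fatty acid synthesis were followed in C2C12 cells, a mouse myoblast line, across a knockdown and a drug treatment. The set holds 33 genes of the 53801 gene identifiers counted, listed by name. It has 18 enzymes that build sterols, 9 enzymes that build and modify fatty acids, 5 regulators of the SREBP transcription factors and 1 sterol carrier. The list was chosen with earlier results of these data known. Member counts set beside shares of all genes therefore describe the list and do not test it. All 33 were found by their symbols, and all 33 were among the 15828 genes that carried enough reads to be tested. Messenger RNA was sequenced from 4 groups of 3 libraries each. The groups were control cells in DMSO, the solvent (Ctrl-DMSO), control cells with thapsigargin (Ctrl-Thap), cells with Cebpg knocked down in DMSO (Sh2-DMSO) and such cells with thapsigargin (Sh2-Thap), each treated for 6 h. Cebpg codes for C/EBP gamma, a leucine zipper factor that can pair with ATF4, and the series title places the study within the ATF4 response to stress. Thapsigargin blocks the calcium pump of the endoplasmic reticulum (ER) and so causes ER stress. The knockdown carries a single label, Sh2, and the treatment of the control cells is not stated in the labels. Effects of lost Cebpg, off-target effects and other differences between the populations therefore cannot be told apart. The protocol for growth mentions HeLa cells, while the source and cell line labels give C2C12.

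As background, cells set their sterol and fatty acid supply largely through SREBP proteins, which are made as ER membrane precursors. SCAP escorts SREBP to the Golgi, where proteases release the active factor, and INSIG proteins hold SCAP in the ER when sterols are plentiful. SREBP-2, from Srebf2, is known mainly for sterol genes and SREBP-1, from Srebf1, mainly for fatty acid genes. Dividing myoblasts need both products for new membrane.

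Levels below are counts of a gene per M gene reads (CPM), with library sizes scaled by TMM factors. Changes are log2 values from edgeR's quasi-likelihood test, and a gene was called at a Benjamini-Hochberg adjusted p under 0.05 over all genes tested. Standard errors (SE) are approximate. The labels do not say whether the libraries of a group are separate cultures. The p-values then cover the spread between these libraries, which may be technical. In bulk RNA, fewer cells of a type and less RNA per cell cannot be told apart. Pairs of libraries within a group had chi-squares of 2.51 to 9.83 per gene, above the counting noise alone. Libraries held 29.42 to 47.72 M gene reads, and the members held 35 to 35872 reads in a library. Cebpg stood at 51.5 to 60.6 CPM in control DMSO libraries and 3.75 to 5.18 CPM in knockdown DMSO libraries. With thapsigargin it stood at 211 to 219 and 5.29 to 6.12 CPM. The ER chaperone gene Hspa5 stood at 1638 to 1749.6 CPM in control DMSO and 20537 to 21110.2 CPM in control thapsigargin libraries. In knockdown cells it stood at 1279 to 1322 and 10387 to 10946 CPM.

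Markers of the labelled cell type were present, with all 7 myoblast markers tested and Des, Itga7 and Chrna1 the leading 3 of them by mean CPM in control DMSO libraries. Their summed level was 2464 to 2699 CPM in control DMSO, 2027 to 2103 in control thapsigargin, 2080.1 to 2221 in knockdown DMSO and 1955 to 2051 CPM in knockdown thapsigargin libraries. The 7 did not move as 1. With thapsigargin in control cells 6 were called lower and 1 higher (log2 change 2.03), against 37.0% and 37.7% of all genes tested. With knockdown in DMSO 3 were higher, 3 lower and 1 not called, against 25.0% higher and 26.5% lower. Of the 8 adipocyte markers only 2 were tested. With thapsigargin in control cells 1 was called higher (1.59) and 1 lower (-1.01), against the shares just given. With knockdown in DMSO 1 was higher (0.99) and 1 not called (-0.53). The sum of the 8 was higher with both factors. That sum was 18.1 to 20.8 CPM in control DMSO and 51.8 to 58.4 CPM in control thapsigargin libraries. In knockdown cells it was 34.1 to 39.1 and 93.0 to 99.3 CPM. Nearly all of that sum was Pparg, with means of 17.9, 53.9, 35.7 and 94.8 CPM in the same order, while Lep had 0 reads and Adipoq, Plin1 and Cidec had means of at most 0.101 CPM in every group. The 6 epithelial markers summed to 14.3 to 15.1, 18.8 to 21.3, 15.0 to 17.5 and 29.8 to 32.8 CPM in that order, mostly Krt14. The 6 leukocyte markers summed to at most 6.93 CPM and the 6 hepatocyte markers to at most 0.501 CPM in any library. The part of these markers in the results below was not tested.

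Thapsigargin lowered most of the synthesis genes in control cells. Summed over the 33 members, control DMSO libraries held 4498 to 4646 CPM and control thapsigargin libraries 3074 to 3139 CPM, 67.7% of the DMSO mean, and the ranges did not overlap. By the test, 26 members fell, 3 rose and 4 were not called, while over all genes tested 37.0% fell and 37.7% rose. The sterol enzymes divided into 14 lower, 2 higher and 2 not called, with a median log2 change of -0.57. The fatty acid enzymes divided into 8 lower, 0 higher and 1 not called, with a median of -0.60. The regulators divided into 3 lower, 1 higher and 1 not called, with a median of -0.15. The median over all genes tested was 0.00. At least 1 in log2 was lost by 7 of the 33 members: 5 sterol enzymes (Dhcr7, Acat2, Nsdhl, Mvk and Tm7sf2) and 2 fatty acid enzymes (Elovl6 and Scd2). No regulator changed by that much. The share of all genes tested that lost at least 1 was not counted, and their lower quartile was -0.51. The small falls of Fasn and Fads1 were not called with DESeq2's size factors in edgeR (adjusted p = 0.152 and 0.0919), nor that of Msmo1 with DESeq2 (adjusted p = 0.0564).

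Knockdown cells showed the same direction. There, 28 members fell with thapsigargin, 1 rose and 4 were not called, while 34.4% of all genes fell and 35.4% rose. Sums went from 3631 to 3746 CPM in knockdown DMSO to 2096 to 2149 CPM in knockdown thapsigargin libraries, 57.3% of the mean. The median log2 change was -0.83 for sterol enzymes, -0.60 for fatty acid enzymes and -0.30 for regulators. The control and knockdown comparisons share no libraries. Of the members that fell, 24 fell in both cell populations, which is 92.3% of the 26 in control and 85.7% of the 28 in knockdown cells. The share of all genes tested that fell in both was not counted, so the overlap cannot be set against it. Acss2 and Insig2 were called lower in control cells alone, and Acaca, Fdps, Insig1 and Scap in knockdown cells alone. Lss was the 1 member that rose in both.

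**Figure D1:**
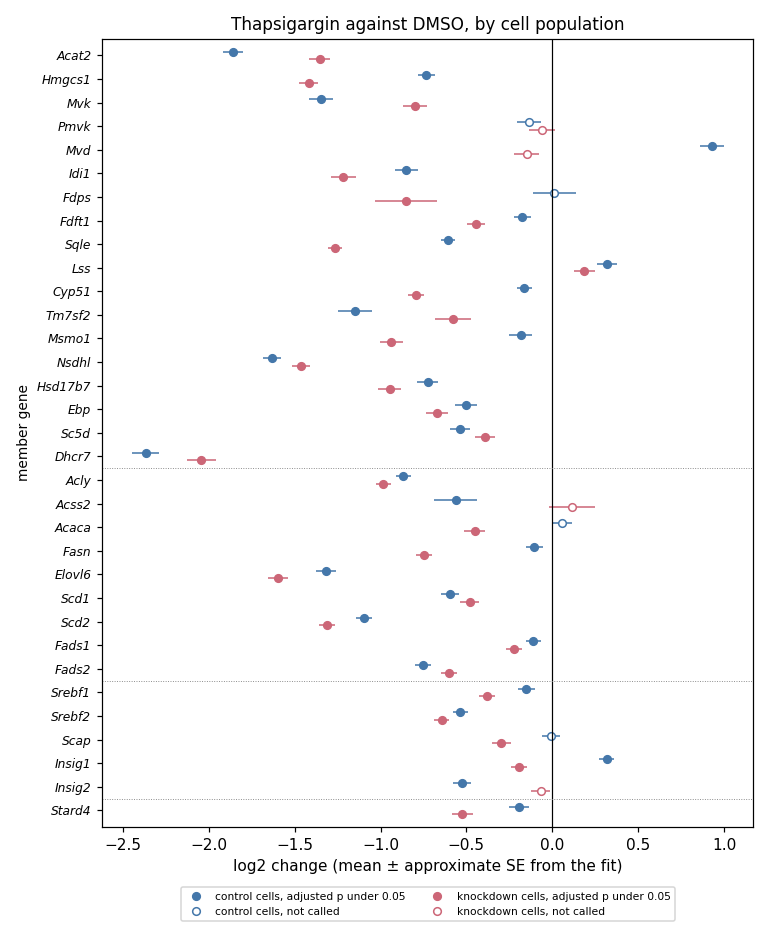
Log2 change with thapsigargin against DMSO (horizontal axis, mean ± approximate SE from the fit) for each of the 33 members (vertical axis) in control cells (blue) and knockdown cells (red). Open points were not called, and dotted lines part sterol enzymes, fatty acid enzymes, regulators and Stard4. Most points lie left of 0, Dhcr7 lies farthest left in both cell populations, and Mvd and Insig1 lie right of 0 in control cells alone.

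Most members were also lower with knockdown in DMSO. The class medians lay closer to 0 than those with thapsigargin in control cells for both enzyme classes, and farther from 0 for the regulators. In DMSO, 28 members were lower in knockdown than in control cells, 2 were higher and 3 were not called, against 26.5% lower and 25.0% higher over all genes tested. The median was -0.30 for sterol enzymes (15 lower, 1 higher, 2 not called), -0.26 for fatty acid enzymes (8 lower, 1 higher) and -0.33 for regulators (4 lower, 1 not called). The exceptions that were higher were Sc5d and Fasn. Some of these calls were marginal, as given with the genes below, and those of Mvd, Idi1, Cyp51 and Acly were also lost with DESeq2's size factors in edgeR (adjusted p 0.0517 to 0.0693). Only Fdps lost at least 1 in log2, and the share of all genes tested that did so was not counted.

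With thapsigargin present, 25 members were lower in knockdown than in control cells, 3 were higher and 5 were not called, against 28.4% lower and 28.5% higher over all genes tested. The medians were -0.55 for sterol enzymes (12 lower, 3 higher, 3 not called), -0.51 for fatty acid enzymes (7 lower, 2 not called) and -0.41 for regulators (5 lower). The DMSO and thapsigargin comparisons of the knockdown share no libraries. Both held 22 lower members, which is 78.6% of the 28 in DMSO and 88.0% of the 25 with thapsigargin. Here too the share of all genes tested that were lower in both was not counted. Acat2, Acss2, Dhcr7, Fads2, Mvk and Tm7sf2 were called lower in DMSO alone, and Fasn, Msmo1 and Scap with thapsigargin alone. Acat2 and Mvk were lower in knockdown cells in DMSO and higher in them with thapsigargin, and Fasn was the reverse. Scaling by library totals alone moved the median of all genes by 0.13 here, took Pmvk, Nsdhl, Acly, Fasn, Scap and Insig2 out of the calls (adjusted p 0.0752 to 0.838) and called Fads2 higher (0.14, adjusted p = 0.0111).

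**Figure D2:**
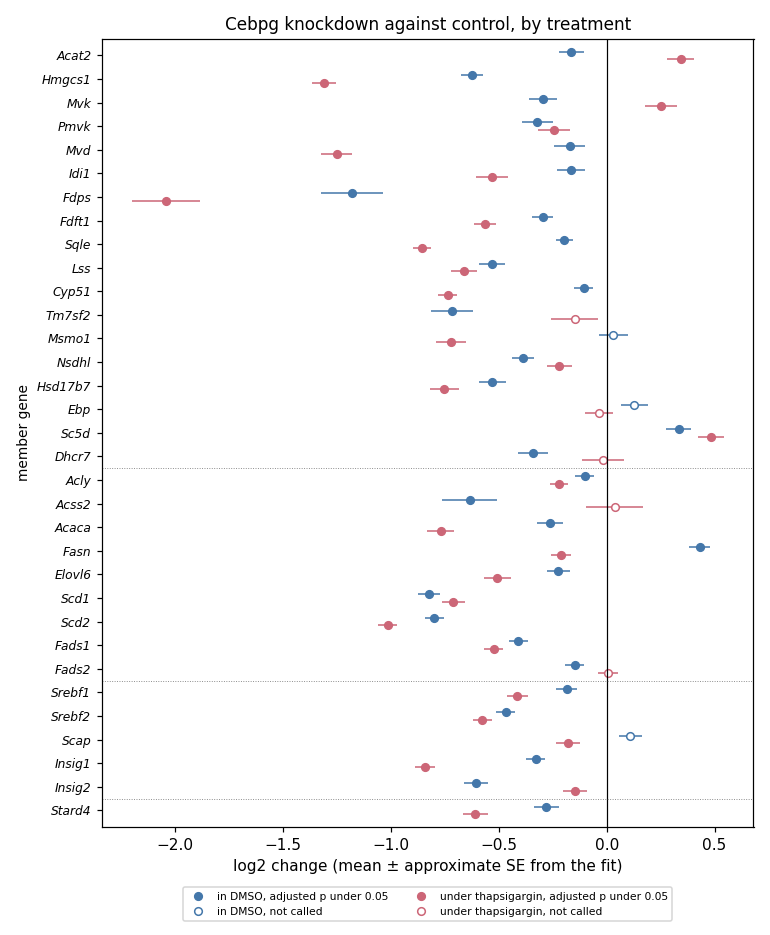
Log2 change with Cebpg knockdown against control cells (horizontal axis, mean ± approximate SE from the fit) for each of the 33 members (vertical axis) in DMSO (blue) and under thapsigargin (red). Open points were not called. Fdps lies farthest left in both treatments, and Mvd and Hmgcs1 lie farther left under thapsigargin than in DMSO.

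The thapsigargin effect differed between the cell populations for 22 members, by the test of the difference itself. It was lower in knockdown cells for 16 and higher for 6, with 11 not called, against 17.7% lower and 17.7% higher over all genes tested. Scaling by library totals alone gave 9 lower and 10 higher, and moved the median of all genes by 0.16, so the balance of directions rests on the scaling. The 16 were Hmgcs1, Mvd, Idi1, Fdps, Fdft1, Sqle, Cyp51 and Msmo1 among sterol enzymes, Acaca, Fasn, Scd2 and Elovl6 among fatty acid enzymes, Srebf1, Scap and Insig1, and the carrier Stard4. The 6 were Acat2, Mvk, Tm7sf2, Dhcr7, Acss2 and Insig2, each of which fell in control cells and had a change closer to or above 0 in knockdown cells. With library totals alone the calls of Idi1, Fdft1, Scd2, Elovl6, Srebf1, Scap and Stard4 were lost, and Nsdhl, Sc5d, Scd1 and Fads2 were called higher.

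Promoter letters of the members, whichever way they moved, were read from RefSeq on GRCm38.p6. A window ran from 250 bases before to 50 bases after a gene's start. Of the 33 members 26 had a window. Fads1, Fdft1, Fdps, Scd1, Scd2, Sqle and Stard4 had none and do not enter the counts. Some members, such as Srebf1 and Insig2, had more than 1 window. A gene was counted where any of its windows held a match. Both strands were searched. The sterol element TCACNCCAC occurred in 1 of the 26, Hmgcs1, against 1.44% of 27025 genes with a window and 1.43% of the tested genes with one. Its core CACNCCAC, which lies within the longer motif, occurred in 3 (11.5%: Hmgcs1, Acat2 and Insig1) against 7.12% and 7.62%. The NF-Y box CCAAT occurred in 21 (80.8%) against 41.06% and 42.69%. The C/EBP-ATF element TGATGNAAT occurred in 0 of the 26 against 1.08% and 0.57%. Its core TGATGNAA occurred in 2 (7.7%: Idi1 and Insig2) against 4.51% and 2.99%. A match is a run of letters and not a measured site. The 4 sequences show the 3 members with the sterol core and Mvd, which rose with thapsigargin in control cells alone. Each gives the 250 bases before the start, 5′ to 3′ on the gene's strand, with matches to CACNCCAC or CCAAT on either strand in capitals. They lie at chr13:119690101-119690350 (plus strand), chr17:12960726-12960975 (minus strand), chr5:28071162-28071411 (plus strand) and chr8:122443423-122443672 (minus strand).
Hmgcs1: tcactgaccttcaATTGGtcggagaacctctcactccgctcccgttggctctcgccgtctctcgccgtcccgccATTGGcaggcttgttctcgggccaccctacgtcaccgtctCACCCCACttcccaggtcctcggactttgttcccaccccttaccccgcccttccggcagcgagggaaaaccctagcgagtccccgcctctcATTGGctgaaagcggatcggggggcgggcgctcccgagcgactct
Acat2: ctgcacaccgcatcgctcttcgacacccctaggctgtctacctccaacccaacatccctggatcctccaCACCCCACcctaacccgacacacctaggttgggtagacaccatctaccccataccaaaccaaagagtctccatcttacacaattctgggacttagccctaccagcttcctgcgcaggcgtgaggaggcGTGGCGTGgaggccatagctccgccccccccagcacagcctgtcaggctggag
Insig1: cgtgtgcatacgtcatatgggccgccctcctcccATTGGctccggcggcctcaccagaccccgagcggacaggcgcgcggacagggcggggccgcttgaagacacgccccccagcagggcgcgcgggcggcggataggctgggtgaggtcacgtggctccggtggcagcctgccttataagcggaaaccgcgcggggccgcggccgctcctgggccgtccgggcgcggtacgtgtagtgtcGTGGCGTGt
Mvd: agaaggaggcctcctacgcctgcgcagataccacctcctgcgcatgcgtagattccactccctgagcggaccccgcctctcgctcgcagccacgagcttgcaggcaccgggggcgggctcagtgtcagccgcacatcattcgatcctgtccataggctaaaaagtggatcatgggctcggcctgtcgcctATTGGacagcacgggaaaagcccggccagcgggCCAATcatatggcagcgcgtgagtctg

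The mevalonate enzymes turn acetyl-CoA into the isoprenoid units of sterols. Of these 7 enzymes, 4 fell, 1 rose and 2 were not called with thapsigargin in control cells, and all 7 were lower with knockdown in DMSO. Over all genes tested 37.0% fell and 37.7% rose with thapsigargin, and 26.5% were lower with knockdown. Acat2 (chromosome 17, 12942890 to 12960747 in GRCm38) encodes the thiolase that joins acetyl-CoA units. Its level was 103, 101 and 91.9 CPM in control DMSO and 28.7, 28.7 and 24.1 CPM in control thapsigargin libraries. In knockdown libraries it was 92.8, 87.4 and 84.0 CPM in DMSO and 34.2, 35.5 and 33.7 CPM with thapsigargin. The thapsigargin libraries lay far below the DMSO libraries, and the knockdown libraries lay above the control libraries with thapsigargin but overlapped them in DMSO. Acat2 fell with thapsigargin by 1.86 in control cells (SE 0.06, adjusted p = 4.9e-23) and by 1.35 in knockdown cells (SE 0.06, adjusted p = 3.59e-19). The difference was 0.51 (SE 0.09, adjusted p = 1.63e-05). Its change with knockdown in DMSO, -0.16, was called at an adjusted p of 0.0159, and that call was lost without control DMSO replicate 1 or 2 or knockdown DMSO replicate 3 (adjusted p 0.0774 to 0.103). Of its distinct 50-base sequences 39.1% also occur in other genes, chiefly Acat3, which stood at 0.324 to 0.809 CPM.

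Hmgcs1 (chromosome 13, 119690379 to 119708260), the synthase that makes HMG-CoA, followed another pattern. It stood at 148, 138 and 138 CPM in control DMSO and 83.8, 83.6 and 87.7 CPM in control thapsigargin libraries. Knockdown libraries stood at 99.8, 85.6 and 89.7 CPM in DMSO and 33.2, 35.1 and 34.6 CPM with thapsigargin. The knockdown DMSO libraries thus overlapped the control thapsigargin libraries, and the knockdown thapsigargin libraries lay lowest. The knockdown changes were -0.62 in DMSO (SE 0.05, adjusted p = 3.58e-12) and -1.31 with thapsigargin (SE 0.06, adjusted p = 6.19e-20), and the thapsigargin changes were -0.73 in control and -1.42 in knockdown cells. The difference was -0.69 (SE 0.07, adjusted p = 5.39e-09).

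Mvd (chromosome 8, 122433601 to 122443422), the decarboxylase that yields isopentenyl diphosphate, rose with thapsigargin in control cells. Its level was 26.2, 26.7 and 21.9 CPM in control DMSO and 46.0, 47.7 and 48.8 CPM in control thapsigargin libraries, 190% of the DMSO mean. Knockdown libraries held 23.2, 23.2 and 20.2 CPM in DMSO and 19.5, 21.2 and 19.2 CPM with thapsigargin. All 3 control thapsigargin libraries lay above every other library, and the other 3 groups formed 1 band. The rise in control cells was 0.93 (SE 0.07, adjusted p = 5.98e-14), the change in knockdown cells was -0.15 (SE 0.07, adjusted p = 0.0734), and the difference was -1.08 (SE 0.10, adjusted p = 2.32e-10). With thapsigargin Mvd was lower in knockdown cells by 1.25 (SE 0.07, adjusted p = 1.66e-16), at 42.0% of the control mean. Its call with knockdown in DMSO (-0.17, adjusted p = 0.0473) was lost without control DMSO replicate 1 or 2, control thapsigargin replicate 1 or 2, knockdown DMSO replicate 3, or knockdown thapsigargin replicate 1 or 3 (adjusted p 0.0509 to 0.274). Its fall in knockdown cells was called without control DMSO replicate 3, knockdown DMSO replicate 3 or knockdown thapsigargin replicate 2 (-0.22 to -0.16, adjusted p 0.0129 to 0.0418).

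Fdps (chromosome 3, 89093588 to 89101959) encodes farnesyl diphosphate synthase, at the branch from sterols to protein prenylation. Control libraries held 5.27, 4.78 and 4.89 CPM in DMSO and 5.50, 4.84 and 4.78 CPM with thapsigargin. Knockdown libraries held 2.14, 2.48 and 1.97 CPM in DMSO and 1.23, 1.39 and 1.03 CPM with thapsigargin. Every knockdown library lay below every control library, while the control groups overlapped. Fdps fell with knockdown by 1.18 in DMSO (SE 0.14, adjusted p = 2.38e-08) and by 2.04 with thapsigargin (SE 0.16, adjusted p = 5.43e-13), the largest fall of any member in both comparisons. The change with thapsigargin was 0.01 in control cells (adjusted p = 0.936) and -0.85 in knockdown cells (adjusted p = 0.000102), with a difference of -0.86 (SE 0.22, adjusted p = 0.00228). Its count is uncertain: 26.7% of its exon length is shared with Gm43738 on the same strand, which had 3 reads over all libraries, and 26.2% of its 50-base sequences occur in other genes.

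The 3 other mevalonate enzymes were Mvk, Pmvk and Idi1, the kinases of mevalonate and phosphomevalonate and the isomerase of isopentenyl diphosphate. Mvk had means ± SD (n = 3) of 33.8 ± 0.54 and 13.3 ± 1.0 CPM in control DMSO and thapsigargin libraries and 27.6 ± 1.2 and 15.9 ± 0.98 CPM in knockdown libraries. Like Acat2, it fell less in knockdown than in control cells (difference 0.55, SE 0.10, adjusted p = 3.54e-05). Idi1 had means of 37.5 ± 0.25 and 20.9 ± 1.3 CPM in control and 33.5 ± 2.5 and 14.4 ± 1.3 CPM in knockdown libraries, and fell more in knockdown cells (difference -0.37, SE 0.10, adjusted p = 0.0039). Its change with knockdown in DMSO (-0.17, adjusted p = 0.0375) lost its call without any 1 of the control DMSO libraries or knockdown DMSO replicate 2 (adjusted p 0.0675 to 0.231). For Idi1, 17.7% of the distinct 50-base sequences also occur in other genes. Pmvk was not called with thapsigargin in either cell population (-0.14 and -0.06), although library totals alone called it lower in control cells (-0.18, adjusted p = 0.0247), and was lower with knockdown in both treatments (-0.32 and -0.24).

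**Figure D3:**
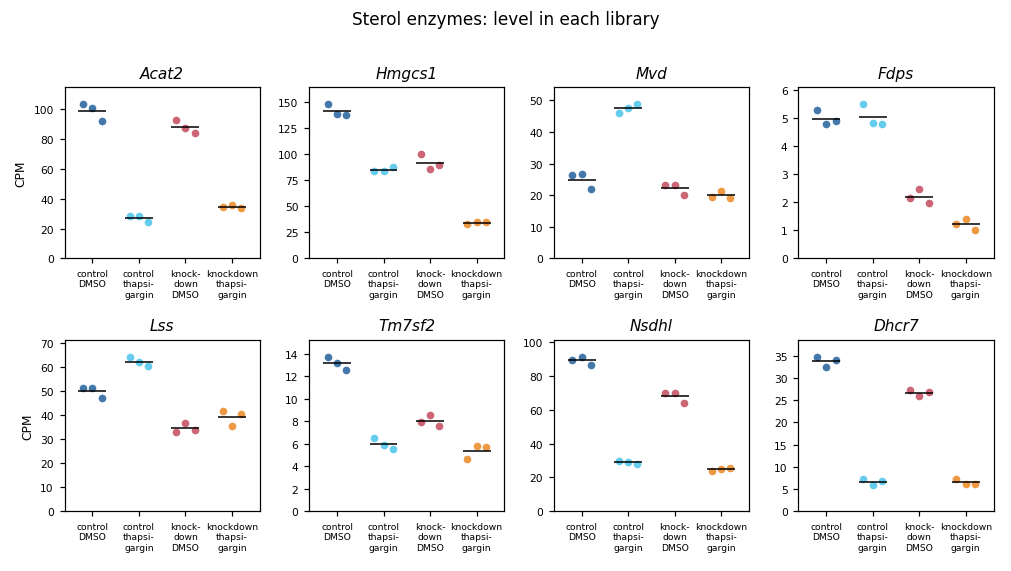
CPM (vertical axes, from 0) of 8 sterol enzymes in each of the 12 libraries, by group (horizontal axes). Points are libraries and bars are group means. Acat2, Nsdhl and Dhcr7 are low in both thapsigargin groups, Hmgcs1 is lowest in knockdown thapsigargin libraries, Mvd is high in control thapsigargin libraries alone, and Fdps is low in both knockdown groups.

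The squalene and lanosterol steps are made by Fdft1, Sqle and Lss, and all 3 were lower with knockdown in both treatments. Over all genes tested 26.5% were lower with knockdown in DMSO and 28.4% with thapsigargin. Lss encodes the cyclase that forms lanosterol, the first sterol. It stood at 51.3, 51.4 and 47.1 CPM in control DMSO and 64.3, 62.0 and 60.6 CPM in control thapsigargin libraries. In knockdown cells it stood at 33.1, 36.8 and 33.7 CPM in DMSO and 41.9, 35.6 and 40.4 CPM with thapsigargin. Every knockdown library lay below every control library. Lss rose with thapsigargin by 0.32 in control cells (SE 0.06, adjusted p = 1.17e-05) and by 0.19 in knockdown cells (SE 0.06, adjusted p = 0.00832), where the groups overlapped. The second call was lost without knockdown DMSO replicate 1 or knockdown thapsigargin replicate 1 (0.15 and 0.14, adjusted p = 0.0601 and 0.0789). Squalene epoxidase, Sqle, had means ± SD of 289.9 ± 5.8 and 190.4 ± 4.3 CPM in control DMSO and thapsigargin libraries and 253 ± 3.0 and 105 ± 1.8 CPM in knockdown libraries. Its fall was larger in knockdown cells (difference -0.66, SE 0.06, adjusted p = 5.47e-11). Squalene synthase, Fdft1, fell by 0.17 in control and 0.44 in knockdown cells, and 18.3% of its exon length is shared with other genes on either strand.

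The 8 enzymes after lanosterol all fell with thapsigargin in control cells and all fell in knockdown cells. Of all genes tested 37.0% fell in control and 34.4% in knockdown cells. Dhcr7 (chromosome 7, 143823145 to 143848410), whose product makes the last reduction to cholesterol, fell the most of any member in control cells. It stood at 34.9, 32.4 and 34.2 CPM in control DMSO and 7.30, 5.84 and 6.69 CPM in control thapsigargin libraries, 19.5% of the DMSO mean. Knockdown libraries stood at 27.2, 25.9 and 26.9 CPM in DMSO and 7.20, 6.20 and 5.99 CPM with thapsigargin. The thapsigargin groups overlapped each other, so the knockdown parted the libraries in DMSO alone. Its thapsigargin change was -2.37 in control cells (SE 0.08, adjusted p = 6.7e-23) and -2.04 in knockdown cells (SE 0.08, adjusted p = 2e-20). The difference, 0.32 (SE 0.12, adjusted p = 0.0332), lost its call with DESeq2 (adjusted p = 0.0552) and without control DMSO replicate 1 or 3, control thapsigargin replicate 2, knockdown DMSO replicate 2 or knockdown thapsigargin replicate 1 (adjusted p 0.0558 to 0.17).

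Nsdhl, on the X chromosome, encodes a dehydrogenase that helps strip methyl groups from the sterol ring. Its level was 89.5, 91.5 and 86.8 CPM in control DMSO and 29.5, 28.9 and 27.9 CPM in control thapsigargin libraries. In knockdown cells it was 70.1, 70.2 and 64.2 CPM in DMSO and 23.8, 25.0 and 25.4 CPM with thapsigargin. The 4 groups did not overlap. Nsdhl fell with thapsigargin by 1.63 in control and 1.46 in knockdown cells (SE 0.05 and 0.06), and the difference of 0.17 was not called (SE 0.08, adjusted p = 0.0847).

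Tm7sf2, a sterol reductase, stood at 13.8, 13.2 and 12.6 CPM in control DMSO and 6.47, 5.90 and 5.51 CPM in control thapsigargin libraries. Knockdown libraries held 7.90, 8.53 and 7.61 CPM in DMSO and 4.62, 5.84 and 5.67 CPM with thapsigargin. The control DMSO libraries lay above all others, and the thapsigargin groups overlapped. It was lower with knockdown by 0.72 in DMSO (SE 0.10, adjusted p = 1.37e-07), was not called with thapsigargin (-0.15, adjusted p = 0.258), and fell less with thapsigargin in knockdown cells (difference 0.57, SE 0.15, adjusted p = 0.00222). Of its exon length 12.1% is shared with other genes.

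The other late enzymes were demethylases and their partners (Cyp51, Msmo1, Hsd17b7) and those that move and add double bonds (Ebp, Sc5d). Cyp51 and Msmo1 were alike: means in control cells were 149 ± 2.9 and 133 ± 2.4 CPM for Cyp51 in DMSO and with thapsigargin, and 132 ± 9.6 and 116 ± 7.5 CPM for Msmo1. In knockdown cells Cyp51 went from 139 ± 3.4 to 80.1 ± 3.9 CPM and Msmo1 from 135 ± 12 to 70.3 ± 5.2 CPM, so both fell more there (differences -0.63, SE 0.06, and -0.75, SE 0.10). The fall of Msmo1 in control cells (-0.18, adjusted p = 0.0183) lost its call without control DMSO replicate 1 or control thapsigargin replicate 2 (adjusted p 0.0865 and 0.0909). The lower level of Cyp51 with knockdown in DMSO (-0.11, adjusted p = 0.042) lost its call without any 1 of the control DMSO libraries, control thapsigargin replicate 1 or 2, or knockdown DMSO replicate 1 or 3 (adjusted p 0.0504 to 0.151). Hsd17b7 was lower with knockdown in both treatments (-0.53 and -0.75) and fell with thapsigargin in both populations. The difference, -0.22, was not called (adjusted p = 0.0609), but it was without control DMSO replicate 1 or knockdown thapsigargin replicate 2 (adjusted p 0.0236 and 0.0428). It was also called with DESeq2's size factors in edgeR and with a filter of at least 1 CPM in 3 libraries (adjusted p 0.0496 and 0.0364). Sc5d was the 1 member higher with knockdown in both treatments, by 0.33 and 0.48 (SE 0.06 each), with means of 42.5 ± 2.6 and 53.6 ± 1.4 CPM in control and knockdown DMSO libraries. Ebp was not called with knockdown in DMSO (0.13) or with thapsigargin (-0.04). The first was called higher without knockdown DMSO replicate 3 (0.17, adjusted p = 0.032). It was also called with a filter of at least 1 CPM in 3 libraries (0.14, adjusted p = 0.0474). The difference of thapsigargin effects for Ebp, -0.17, was called without control thapsigargin replicate 3 (-0.24, adjusted p = 0.0348).

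Among the fatty acid enzymes the highest level per exon length in control DMSO libraries was that of Scd2, at 188 CPM per kilobase of exon (RPKM), against 60.6 for Scd1, 58.6 for Acly, 34.9 for Fasn and 0.543 for Acss2. Scd2 (chromosome 19, 44293674 to 44306864) and its neighbour Scd1 encode desaturases that make oleic and palmitoleic acid. Scd2 stood at 1040.1, 1028 and 1015 CPM in control DMSO and 474, 497 and 471 CPM in control thapsigargin libraries. Knockdown libraries stood at 619, 547 and 605 CPM in DMSO and 240.1, 236 and 237 CPM with thapsigargin. The 4 groups did not overlap, and the knockdown thapsigargin libraries lay lowest. Scd2 fell with thapsigargin by 1.10 in control cells (SE 0.04, adjusted p = 7.04e-21) and by 1.31 in knockdown cells, a difference of -0.22 (SE 0.06, adjusted p = 0.00681). It was lower with knockdown by 0.80 in DMSO and 1.02 with thapsigargin (SE 0.04 each).

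Scd1 stood at 299.5, 302 and 289 CPM in control DMSO and 192, 212 and 185 CPM in control thapsigargin libraries. Knockdown libraries stood at 175, 152 and 176 CPM in DMSO and 118, 117 and 125 CPM with thapsigargin. Here too the 4 groups did not overlap. Its change with knockdown in DMSO was -0.82 (SE 0.05, adjusted p = 3.02e-14), the largest fall of a fatty acid enzyme in that comparison. The thapsigargin changes were -0.59 in control and -0.48 in knockdown cells, and their difference was not called (0.11, SE 0.07, adjusted p = 0.259). Of the 50-base sequences 4.6% for Scd1 and 4.0% for Scd2 occur in other genes.

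Elovl6, which lengthens palmitic acid, stood at 90.4, 84.6 and 86.5 CPM in control DMSO and 32.7, 37.0 and 35.0 CPM in control thapsigargin libraries. In knockdown cells it stood at 77.4, 71.2 and 75.1 CPM in DMSO and 26.5, 23.8 and 23.5 CPM with thapsigargin. Its groups did not overlap either. Elovl6 fell the most of the fatty acid enzymes with thapsigargin, by 1.32 in control cells (SE 0.06, adjusted p = 2.75e-20) and 1.60 in knockdown cells (SE 0.06, adjusted p = 1.12e-21), with a difference of -0.28 (SE 0.08, adjusted p = 0.00641).

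Acly makes cytosolic acetyl-CoA from citrate. It stood at 313, 304 and 311 CPM in control DMSO and 165, 167 and 177 CPM in control thapsigargin libraries. Knockdown libraries held 291, 282 and 291 CPM in DMSO and 149, 149 and 139 CPM with thapsigargin. The fall with thapsigargin was 0.87 in control and 0.98 in knockdown cells (SE 0.04 each), and the difference was not called (-0.12, SE 0.06, adjusted p = 0.135). The knockdown change in DMSO was small (-0.10, SE 0.04, adjusted p = 0.0411). Although the DMSO groups did not overlap, that call was lost without any 1 of the 6 DMSO libraries or control thapsigargin replicate 2 (adjusted p 0.0511 to 0.122).

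Acss2, which makes acetyl-CoA from acetate, was the lowest member per exon length in control DMSO libraries. Its level was 5.83, 5.76 and 4.97 CPM in control DMSO and 3.80, 3.97 and 3.43 CPM in control thapsigargin libraries. Knockdown libraries held 3.56, 3.16 and 3.94 CPM in DMSO and 4.12, 3.73 and 3.67 CPM with thapsigargin. Only the control DMSO libraries stood apart, above all the others. Acss2 was lower with knockdown in DMSO (-0.64, SE 0.13, adjusted p = 9.55e-05) and not called with thapsigargin (0.04, adjusted p = 0.825), and the difference of thapsigargin effects was 0.67 (SE 0.18, adjusted p = 0.00411).

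Fasn (chromosome 11, 120805846 to 120824547), the fatty acid synthase, was the 1 fatty acid enzyme that was higher with knockdown in DMSO. Its level was 377, 408 and 362 CPM in control DMSO and 500.0, 517 and 529 CPM in knockdown DMSO libraries, with no overlap. In thapsigargin libraries it was 344, 357 and 367 CPM in control cells and 320.2, 291 and 310.3 CPM in knockdown cells, again with no overlap but in the other direction. The knockdown change was 0.43 in DMSO (SE 0.05, adjusted p = 2.42e-09) and -0.21 with thapsigargin (SE 0.05, adjusted p = 0.000238). Thapsigargin was followed by a fall of 0.75 in knockdown cells (SE 0.05, adjusted p = 1.63e-15). The change in control cells, -0.10, was called at an adjusted p of 0.0454 and lost without control DMSO replicate 2 or control thapsigargin replicate 1 or 2 (adjusted p 0.0732 to 0.462). The difference was -0.64 (SE 0.07, adjusted p = 1.76e-09).

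The 3 remaining fatty acid enzymes were Acaca, the carboxylase that makes malonyl-CoA, and the desaturases Fads1 and Fads2 of polyunsaturated fatty acids. Acaca had means ± SD of 76.9 ± 0.65 and 79.9 ± 3.2 CPM in control DMSO and thapsigargin libraries and 64.1 ± 4.6 and 46.8 ± 5.0 CPM in knockdown libraries. It was not called with thapsigargin in control cells (0.06) and fell in knockdown cells (-0.45), a difference of -0.51 (SE 0.09, adjusted p = 1.6e-05). Of its 50-base sequences 30.4% occur in other genes, chiefly Gm5182, at 3.54 to 6.48 CPM. Fads1 had means of 177 ± 5.7 and 164 ± 7.5 CPM in control and 133 ± 3.5 and 114 ± 0.35 CPM in knockdown libraries. Its fall in control cells (-0.11, adjusted p = 0.0235) lost its call without control DMSO replicate 1 or 2 or control thapsigargin replicate 1 or 3 (adjusted p 0.06 to 0.147). Fads2 had means of 121 ± 2.9 and 71.7 ± 2.0 CPM in control and 109 ± 2.1 and 71.9 ± 2.7 CPM in knockdown libraries. Its lower level with knockdown in DMSO (-0.15, adjusted p = 0.00588) was not called without control DMSO replicate 2 (adjusted p = 0.0503). Its difference of thapsigargin effects (0.15, adjusted p = 0.0648) was called without knockdown thapsigargin replicate 3 (0.18, adjusted p = 0.0391). Scaling by upper quartiles also called it (0.17, adjusted p = 0.0404).

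**Figure D4:**
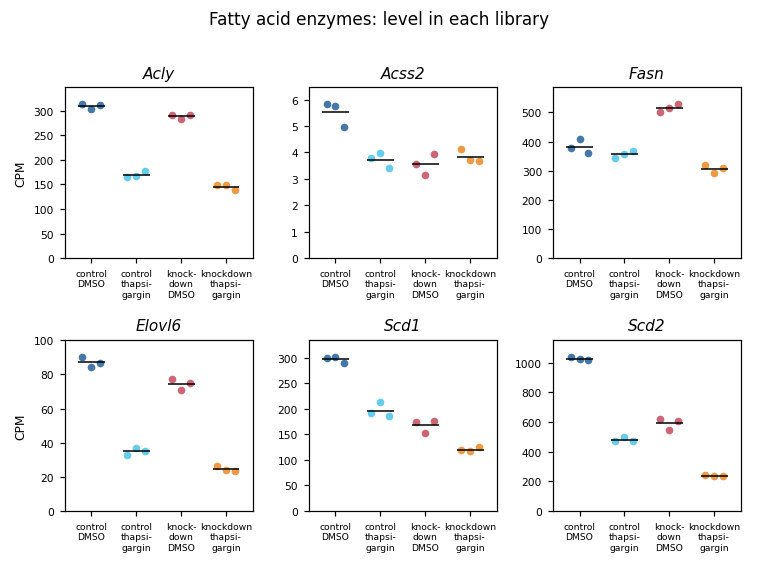
CPM (vertical axes, from 0) of 6 fatty acid enzymes in each of the 12 libraries, by group (horizontal axes). Points are libraries and bars are group means. Acly, Elovl6, Scd1 and Scd2 are lower with thapsigargin in both cell populations, Acss2 is high in control DMSO libraries alone, and Fasn is highest in knockdown DMSO libraries.

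The regulators changed by less than the largest enzyme changes, and with thapsigargin in control cells the INSIG genes moved in opposite directions. Srebf2 (chromosome 15, 82147181 to 82205379) stood at 413, 418 and 401 CPM in control DMSO and 276, 279 and 295 CPM in control thapsigargin libraries. Knockdown libraries held 296, 291 and 302 CPM in DMSO and 199.6, 179 and 190.3 CPM with thapsigargin. The control thapsigargin and knockdown DMSO libraries overlapped, between the control DMSO libraries above and the knockdown thapsigargin libraries below. Srebf2 fell with thapsigargin by 0.54 in control cells (SE 0.04, adjusted p = 7.54e-13) and 0.65 in knockdown cells (SE 0.04, adjusted p = 1.65e-14), and the difference was not called (-0.11, SE 0.06, adjusted p = 0.184). It was lower with knockdown by 0.47 in DMSO and 0.58 with thapsigargin.

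Srebf1 (chromosome 11, 60199089 to 60222581) stood at 93.8, 102 and 91.6 CPM in control DMSO and 85.6, 87.1 and 86.1 CPM in control thapsigargin libraries. In knockdown cells it stood at 83.6, 85.7 and 83.4 CPM in DMSO and 67.9, 63.3 and 63.0 CPM with thapsigargin. The knockdown thapsigargin libraries lay well below the rest. The thapsigargin change was -0.15 in control cells (SE 0.05, adjusted p = 0.00523), a call lost without control DMSO replicate 2 (-0.09, adjusted p = 0.109), and -0.38 in knockdown cells (SE 0.05, adjusted p = 3.05e-08). The difference was -0.23 (SE 0.07, adjusted p = 0.00869). With thapsigargin it was lower in knockdown cells by 0.41 (SE 0.05, adjusted p = 8.08e-09).

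Scap stood at 63.4, 65.5 and 59.4 CPM in control DMSO and 59.4, 60.6 and 67.2 CPM in control thapsigargin libraries. Knockdown libraries held 64.9, 71.8 and 66.5 CPM in DMSO and 56.1, 55.2 and 54.2 CPM with thapsigargin. Only the knockdown thapsigargin libraries lay apart, below the others. Scap fell with thapsigargin in knockdown cells by 0.30 (SE 0.06, adjusted p = 1.67e-05), and was not called in control cells (-0.01, adjusted p = 0.903), with a difference of -0.29 (SE 0.08, adjusted p = 0.00357). Its lower level with knockdown under thapsigargin (-0.18, adjusted p = 0.0063) was not called without control thapsigargin replicate 3 (-0.13, adjusted p = 0.066). With knockdown in DMSO (0.11, adjusted p = 0.0909) it was called higher without control DMSO replicate 2 (0.15, adjusted p = 0.0365). Scaling by upper quartiles and a filter of at least 1 CPM in 3 libraries also called it higher (adjusted p 0.0487 and 0.0494). Of its exon length 13.2% is shared with a gene on the opposite strand.

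Insig1 (chromosome 5, 28071363 to 28078662), itself known as a target of SREBP, rose with thapsigargin in control cells. It stood at 84.0, 82.5 and 80.7 CPM in control DMSO and 104, 101 and 104 CPM in control thapsigargin libraries. Knockdown libraries held 66.2, 63.3 and 67.2 CPM in DMSO and 58.3, 56.3 and 57.4 CPM with thapsigargin. The 4 groups did not overlap, and the order of the treatments was reversed between the cell populations. The change was 0.32 in control cells (SE 0.04, adjusted p = 1.5e-07) and -0.19 in knockdown cells (SE 0.05, adjusted p = 0.000501), with a difference of -0.51 (SE 0.07, adjusted p = 1.18e-07). Scaling by library totals alone took the fall in knockdown cells out of the calls (-0.07, adjusted p = 0.168). With thapsigargin it was lower in knockdown cells by 0.84 (SE 0.05, adjusted p = 7.79e-17), the largest change of a regulator.

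Insig2 (chromosome 1, 121304353 to 121332589) went the other way. It stood at 59.8, 65.3 and 61.8 CPM in control DMSO and 45.1, 43.1 and 41.7 CPM in control thapsigargin libraries. Knockdown libraries held 43.3, 38.9 and 40.7 CPM in DMSO and 38.8, 37.8 and 40.5 CPM with thapsigargin. The control DMSO libraries lay above all others, which lay close together. Insig2 fell with thapsigargin in control cells by 0.53 (SE 0.06, adjusted p = 2.37e-10), was not called in knockdown cells (-0.07, adjusted p = 0.291), and had a difference of 0.46 (SE 0.08, adjusted p = 1.97e-05). It was lower with knockdown in DMSO by 0.61 (SE 0.06, adjusted p = 5.39e-11). With thapsigargin the change was -0.15 (adjusted p = 0.0246), a call lost without control thapsigargin replicate 1 or knockdown thapsigargin replicate 1 or 2 (adjusted p 0.0555 to 0.105). Having no filter on low counts or scaling by upper quartiles also lost it (adjusted p 0.0774 and 0.0734).

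**Figure D5:**
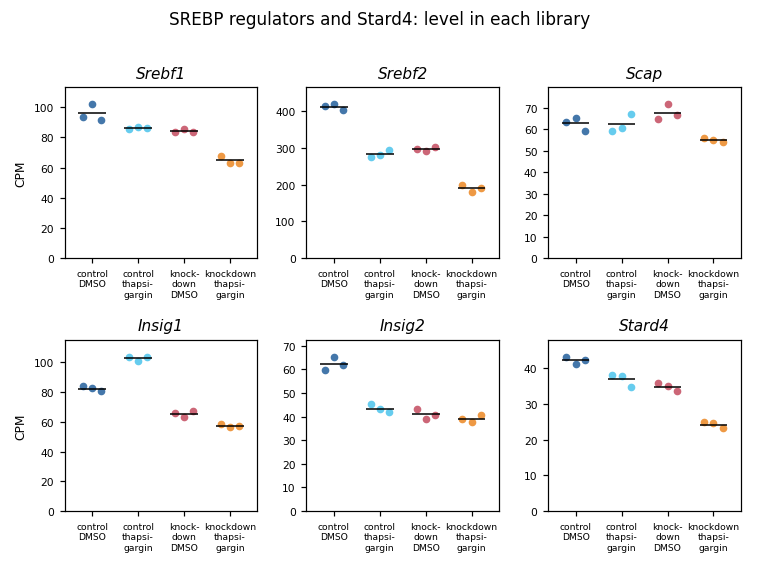
CPM (vertical axes, from 0) of the 5 SREBP regulators and of Stard4 in each of the 12 libraries, by group (horizontal axes). Points are libraries and bars are group means. Srebf2 and Stard4 are lowest in knockdown thapsigargin libraries, Insig1 is highest in control thapsigargin libraries, and Insig2 is highest in control DMSO libraries.

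Stard4, a soluble carrier that moves sterols between membranes, was lower in all 5 comparisons. Its means ± SD were 42.2 ± 1.0 and 36.9 ± 1.9 CPM in control DMSO and thapsigargin libraries and 34.8 ± 1.2 and 24.2 ± 0.93 CPM in knockdown libraries. The fall with thapsigargin was 0.19 in control and 0.52 in knockdown cells (SE 0.06 each), a difference of -0.33 (SE 0.08, adjusted p = 0.00192).

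Set side by side, the 3 classes shared their main direction but not their spread. With thapsigargin in control cells the sterol enzymes ran from -2.37 (Dhcr7) to 0.93 (Mvd), the fatty acid enzymes from -1.32 (Elovl6) to 0.06 (Acaca) and the regulators from -0.54 (Srebf2) to 0.32 (Insig1). Summed levels in control thapsigargin libraries were 69.5% of the control DMSO mean for sterol enzymes, 62.7% for fatty acid enzymes and 80.9% for regulators. In knockdown cells they were 53.0%, 55.1% and 73.1% of the knockdown DMSO mean. Knockdown DMSO libraries held 85.8%, 78.3% and 77.8% of the control DMSO means in the same order, and knockdown thapsigargin libraries 65.4%, 68.8% and 70.2% of the control thapsigargin means. The summed fatty acid level is led by Scd2. Whether the classes differ from one another was not tested.

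Other lipid genes did not all share the direction. Over all genes tested, 37.7% rose and 37.0% fell with thapsigargin in control cells, and 25.0% were higher and 26.5% lower with knockdown in DMSO, against which the counts of each list are to be read. Of 8 genes of SREBP processing and INSIG turnover, 3 rose and 5 fell with thapsigargin in control cells, and 0 were higher and 4 lower with knockdown in DMSO, and the share that rose (37.5%) was close to that of all genes. Erlin1 (1.01, SE 0.05), an ER scaffold gene, rose, while Rnf145 (-1.35, SE 0.05), an ER ubiquitin ligase, and Erlin2 (-0.83, SE 0.05) fell. Of 18 genes of sterol uptake, efflux and storage, 9 rose and 6 fell with thapsigargin in control cells, and 8 were higher and 6 lower with knockdown in DMSO. The oxysterol enzyme gene Ch25h (3.58, SE 0.16) and the oxysterol-binding Osbp (1.61, SE 0.04) rose. Scarb1 (-1.17, SE 0.06), the HDL receptor gene, and Npc2 (-0.92, SE 0.05), for sterol exit from lysosomes, fell.

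Of 25 genes of further fatty acid and glycerolipid metabolism, 8 rose and 11 fell with thapsigargin in control cells, and 8 were higher and 7 lower with knockdown in DMSO. Those shares, 32.0% and 44.0% with thapsigargin and 32.0% and 28.0% with knockdown, lay near those of all genes. Dgat2 (2.01, SE 0.09), of triglyceride synthesis, and Fads3 (1.21, SE 0.05) rose, while the citrate carrier gene Slc25a1 (-0.89, SE 0.06) and the elongase gene Elovl5 (-0.62, SE 0.05) fell. Among 11 genes of the isoprenoid branch 6 rose and 1 fell with thapsigargin in control cells, and 3 were higher and 3 lower with knockdown in DMSO. Pggt1b (0.87, SE 0.08), for protein geranylgeranylation, and Dhdds (0.64, SE 0.05), for dolichol, rose, and Icmt (-0.73, SE 0.05), which methylates prenylated proteins, fell. Of 13 fatty acid oxidation genes 12 were tested. With thapsigargin in control cells 1 rose, the coactivator gene Ppargc1a (3.05, SE 0.21), and 8 fell, led by the acyl-CoA dehydrogenase genes Acadm (-1.23, SE 0.05) and Acadl (-1.03, SE 0.05). With knockdown in DMSO 3 were higher and 2 lower.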

How the data were processed

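Poly(A) RNA libraries of C2C12 cells were analysed from raw read counts per gene deposited by the authors. Per the submitters' processing notes, reads were trimmed with Trim Galore and aligned with STAR 2.5.3a, bedtools 2.31.0 and DESeq2 were used, and the builds mm10 and hg38 are named. Neither the counter nor its annotation and strand setting is stated there, which leaves overlapping genes uncertain. The deposited counts hold 53801 gene identifiers, of which 53706 matched GENCODE vM21 on GRCm38. A further 5 entries that name no gene held 13.32% to 14.61% of reads per library and were left out.

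One edgeR 4.0.16 quasi-likelihood model (TMM scaling, filterByExpr, robust) was fitted over the 12 libraries in 4 groups. It had 8 residual degrees of freedom, and the common biological variation was 4.67%. It tested 15828 genes, with Benjamini-Hochberg adjustment over all of them. Each SE was obtained from the log2 change and its F statistic, as |log2|/sqrt(F). CPM uses TMM library sizes, and RPKM divides CPM by exon length in GENCODE vM21. The members and lists were chosen with earlier results of these data known. Full values were given for the 5 regulators and, per enzyme class, for the 3 largest called changes with thapsigargin in control cells and with knockdown in DMSO, the 2 largest called differences, and enzymes called against their class with thapsigargin in control cells. Of each other list, the largest called changes were named, up to 2 per direction, where any group reached a mean of 5 CPM. One result under this rule is not reported here. Sequence shared between genes was counted in 50-base steps of GENCODE transcripts.

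Tested on simulated data, the model called 99% of genes with a simulated log2 change of 1 and 86% of those with 0.5 for thapsigargin in control cells (12 false calls among 15251 genes), and 93% and 74% for the difference (5 among 15265). Only a small share of genes, each with a mean of at least 1 CPM, was changed there, up or down at random in 1 group. Far more genes were called in the real data, so the simulation cannot show errors of scaling. Its counts were drawn with the trend of spread by level fitted to these libraries. Genes or libraries that depart from that trend were therefore not simulated either. Results were recomputed with other scalings, a stricter and no filter, an adjusted p under 0.01, limma-voom (limma 3.58.1), DESeq2 1.42.0, only the compared groups, a replicate block and each library left out. Software was Python 3.11.15 with pandas 2.3.3, matplotlib 3.10.9 and R 4.3.3.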

Additional observations from a re-analysis of the deposited data

Results flagged for a closer look

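The results here are the 22 members whose thapsigargin effect differed between knockdown and control cells by the test of the difference in edgeR's quasi-likelihood model. Values are log2 differences, knockdown minus control. Among sterol enzymes they were -1.08 for Mvd, -0.863 for Fdps, -0.754 for Msmo1, -0.686 for Hmgcs1, -0.659 for Sqle, -0.631 for Cyp51, -0.368 for Idi1 and -0.268 for Fdft1. In the other direction they were 0.571 for Tm7sf2, 0.545 for Mvk, 0.506 for Acat2 and 0.324 for Dhcr7. Among fatty acid enzymes they were -0.642 for Fasn, -0.507 for Acaca, -0.281 for Elovl6 and -0.216 for Scd2, and 0.674 for Acss2. For the regulators they were -0.511 for Insig1, -0.288 for Scap and -0.228 for Srebf1, and 0.457 for Insig2. The carrier Stard4 had -0.329. Mvd, Insig1 and Fasn stand out in the levels: Mvd and Insig1 rose in control cells alone, and Fasn was highest in knockdown DMSO libraries. Of the called enzymes of the first steps Acat2 and Mvk were positive and Hmgcs1, which acts between them, was negative. Mvd, Idi1, Fdps, Fdft1 and Sqle, which act later, were negative. Pmvk, which acts between Mvk and Mvd, was not called (0.03 to 0.24 over the settings). Lss, which acts after Sqle, was not called either (-0.18 to 0.03). Among the called enzymes after lanosterol, Cyp51 and Msmo1 were negative and Tm7sf2 and Dhcr7 positive. The sign thus did not follow the order of the steps over the whole pathway. With library totals alone the calls of Idi1 (-0.21, adjusted p = 0.093) and Fdft1 (-0.11, adjusted p = 0.224) were lost. So were those of Scd2, Elovl6, Srebf1, Scap and Stard4. The call of Dhcr7 was lost with DESeq2 (adjusted p = 0.0552) and without any 1 of 5 libraries (adjusted p 0.0558 to 0.17).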

How the results depend on the processing

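Class medians and counts of called members were recomputed under each alternative, 426 values for 20 results, and 413 of them stayed within the replicate spread or within 1.5 times the count. That total flatters the results. Leaving out a library of a group not compared could hardly move a class median, although it could move a count of calls. Without control thapsigargin replicate 2, for example, 25 in place of 28 members were lower with knockdown in DMSO. The limit for counts also let pass 22 in place of 28 members lower with knockdown in DMSO, without control DMSO replicate 2. It let pass 19 in place of 25 lower with knockdown under thapsigargin, with library totals alone. Library totals alone, in place of TMM, moved the median of all genes by 0.133 for knockdown under thapsigargin, 0.12 for thapsigargin in knockdown cells and 0.158 for the difference. With them the medians for knockdown under thapsigargin were -0.416 for sterol and -0.373 for fatty acid enzymes, those for thapsigargin in knockdown cells -0.705 and -0.480, and those for the difference -0.034 and 0.040, the last reversed in sign. The difference then gave 10 members higher and 9 lower. A filter of at least 1 CPM in 3 libraries gave 4 members higher with knockdown in DMSO, with Ebp and Scap added (adjusted p = 0.0474 and 0.0494). With 1 library left out, the fatty acid median ran from -0.304 to -0.205 for knockdown in DMSO and from -0.659 to -0.554 for thapsigargin in control cells, and the count of members higher with thapsigargin in knockdown cells from 0 to 1. Libraries with the same number did not deviate together (correlations at most 0.077), and no paired origin is stated. The replicate block left every count of called members as it was, except 29 in place of 28 lower with thapsigargin in knockdown cells (Mvd, adjusted p = 0.0473). The shorter promoter window held the CCAAT box in 19 of 26 members, and the motif cores in place of the longer motifs gave 3 in place of 1 and 2 in place of 0. Fdps, Acss2 and Tm7sf2, the lowest members per exon length in control DMSO libraries, had the largest SEs.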
